A study of Mus musculus with 6 samples.

Results

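The antiviral effectors of the interferon response were followed in MC38 tumors injected with vehicle or with the nanozyme Mn-N/C. They are 40 genes taken by symbol from the deposited expression table, and all 40 were found among its 21958 genes. The set holds the IFIT, OAS and MX families, sensors of foreign RNA and DNA, the PARP9/DTX3L group, ISG15 with its protease, enzymes that act on nucleotides or RNA, 2 subunits of the transcription factor ISGF3 and 9 further effectors. Of these, 38 had enough reads to be tested with the 12800 genes that passed a filter on low counts. The exceptions were Ifi44l, with no read in any library, and Ifit1bl1, with 5, 0 and 4 reads in vehicle and 4, 11 and 1 reads in Mn-N/C libraries. For Ifi44l, a count of 0 allows a level of up to 0.158 to 0.200 CPM (read counts scaled to a common library size) per library, a limit of 3 reads that covers counting error only.

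MC38 is a colon carcinoma line derived from C57BL/6 mice, and Mn-N/C is a catalyst of isolated manganese atoms on nitrogen-doped carbon that turns hydrogen peroxide into hydroxyl radicals. The cells were injected under the skin of the right flank of young adult wild-type male C57BL/6J mice, and palpable tumors received 50 µl of saline (vehicle), or the same volume holding 70 mg/kg of Mn-N/C, directly into the tumor at intervals of 3 days. Tumor line, host genotype and route were shared by both groups of 3 libraries, and the injected agent differed. In the general protocol of this tumor model tissue was collected at 800 to 1000 mm3. The size, the day of collection and the number of injections are not given for the sequenced tumors in the sources used here, so a difference in them cannot be told apart from the agent. The sources do not tie a library to a separate animal. The p-values therefore cover only the spread among these samples, and that spread may be technical. The libraries held 14988588 to 18961134 counted reads. RNA came from whole tissue, a mix of tumor and host cells, in which fewer cells of a type and less RNA per cell cannot be told apart. Of 8 listed markers of colon epithelium or carcinoma, Cdx2 had no read, and Epcam, Krt8, Krt18, Krt19 and Vil1 were below 1 CPM in every library. Cdh1 was at 18.1 to 39.5 CPM and Lgals4 at 2.10 to 6.06 CPM.

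Type I interferons bind the receptor IFNAR, whose kinases phosphorylate STAT2. With IRF9 it is part of ISGF3, which binds interferon-stimulated response elements in front of antiviral genes. The products then block infection at different steps. IFIT proteins hold viral RNA, OAS enzymes make oligoadenylates that switch on RNase L, MX proteins are dynamin-like GTPases that trap viral particles, and RIG-I and MDA5 sense viral RNA and start more interferon. In tumors the same genes serve as a readout of interferon acting on tumor, immune and stromal cells.

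The response element is visible in front of several members, and the stretches of Rsad2, one of the members that were lower in Mn-N/C at an unadjusted p under 0.05, of the IFIT, OAS and ISG15 families and of Bst2, the member with the highest level, are printed here to show it. Promoter windows from RefSeq (GRCm38.p6, 250 bases before to 50 after a start) were matched by symbol for 27 of the 40 members, which gave 32 windows. The core of the response element (GAAA, any 2 bases, GAAA), searched on both strands, was in 15 of the 32 windows (46.9%), from 14 genes, and in 1131 of 32851 windows of all genes (3.44%). The lines below run 5′ to 3′ on the gene's strand with the response element core, or its reverse complement (TTTC, any 2 bases, TTTC), in capitals.
Ifit1: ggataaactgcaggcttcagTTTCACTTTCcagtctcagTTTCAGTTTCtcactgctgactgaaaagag
Ifit3: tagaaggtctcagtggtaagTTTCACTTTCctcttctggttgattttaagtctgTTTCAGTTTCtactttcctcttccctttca
Ifit3b: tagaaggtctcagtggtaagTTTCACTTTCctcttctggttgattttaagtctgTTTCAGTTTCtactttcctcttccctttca
Isg15: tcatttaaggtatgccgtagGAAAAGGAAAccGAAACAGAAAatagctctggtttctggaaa
Oas1a: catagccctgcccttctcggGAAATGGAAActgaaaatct
Oas1g: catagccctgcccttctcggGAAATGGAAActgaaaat
Oas3: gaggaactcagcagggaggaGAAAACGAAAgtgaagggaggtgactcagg
Rsad2: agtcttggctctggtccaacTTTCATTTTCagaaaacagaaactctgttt
Bst2: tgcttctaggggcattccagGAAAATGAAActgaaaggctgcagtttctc

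These stretches lie at chr19:34640765-34640833 (plus strand) for Ifit1, chr19:34583353-34583436 (plus strand) for Ifit3 and chr19:34607749-34607832 (plus strand) for Ifit3b. Isg15 is at chr4:156200855-156200916 (minus strand), Oas1a at chr5:120907526-120907565 (minus strand), Oas1g at chr5:120887614-120887651 (minus strand), Oas3 at chr5:120777705-120777754 (minus strand), Rsad2 at chr12:26456543-26456592 (minus strand) and Bst2 at chr8:71537573-71537622 (minus strand). The first match began 104 bases before the start of Ifit1, 156 before Ifit3, 78 before Isg15, 120 before Rsad2 and 20 before Oas1a. Ifit1, Ifit3, Ifit3b and Isg15 each carried a second copy nearby. The stretch of Ifit3 was equal to that of Ifit3b at 84 of 84 bases, and those of Oas1a and Oas1g were equal at 38 of 38 bases compared. Such gene copies may also share reads, so the split of counts between Ifit3 and Ifit3b and among the Oas1 genes is uncertain. In Eif2ak2 and Ifih1 the core began 18 and 32 bases after the start, and these stretches are not printed. The windows of Samd9l, Dtx3l, Ifit2 and Parp12 held no such core, which says only that these letters are not in those windows. Matches describe the letters, not a bound site.

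Injection of Mn-N/C was compared with saline to see whether antiviral effectors differed between the groups. No member passed an adjusted p of 0.05 in edgeR's quasi-likelihood test, in which 0% of all 12800 genes passed in either direction. Means were lower in Mn-N/C tumors for 29 of the 38 tested members and higher for 9, against 49.8% lower among all genes. The median log2 fold change (Mn-N/C over vehicle, given with its standard error, SE, for single genes) was -0.26 over the tested members and 0.00 over all genes. At an unadjusted p under 0.05, 6 members were lower, namely Samd9l, Dtx3l, Eif2ak2, Rsad2, Ifih1 and Ifit2, and none was higher, against 11.1% of all genes lower and 9.82% higher. The groups did not overlap for 3 members, Samd9l, Dtx3l and Ifih1, all lower in Mn-N/C (12.1% of all genes), while 0 members lay wholly higher (14.2%). DESeq2, a second count test, called 1 member, Samd9l, lower, where it called 3.35% of all genes lower, and 25 of the 38 members received no adjusted p from it. DESeq2 had the same 6 members lower at an unadjusted p under 0.05, against 11.7% of all genes.

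**Figure D1:**
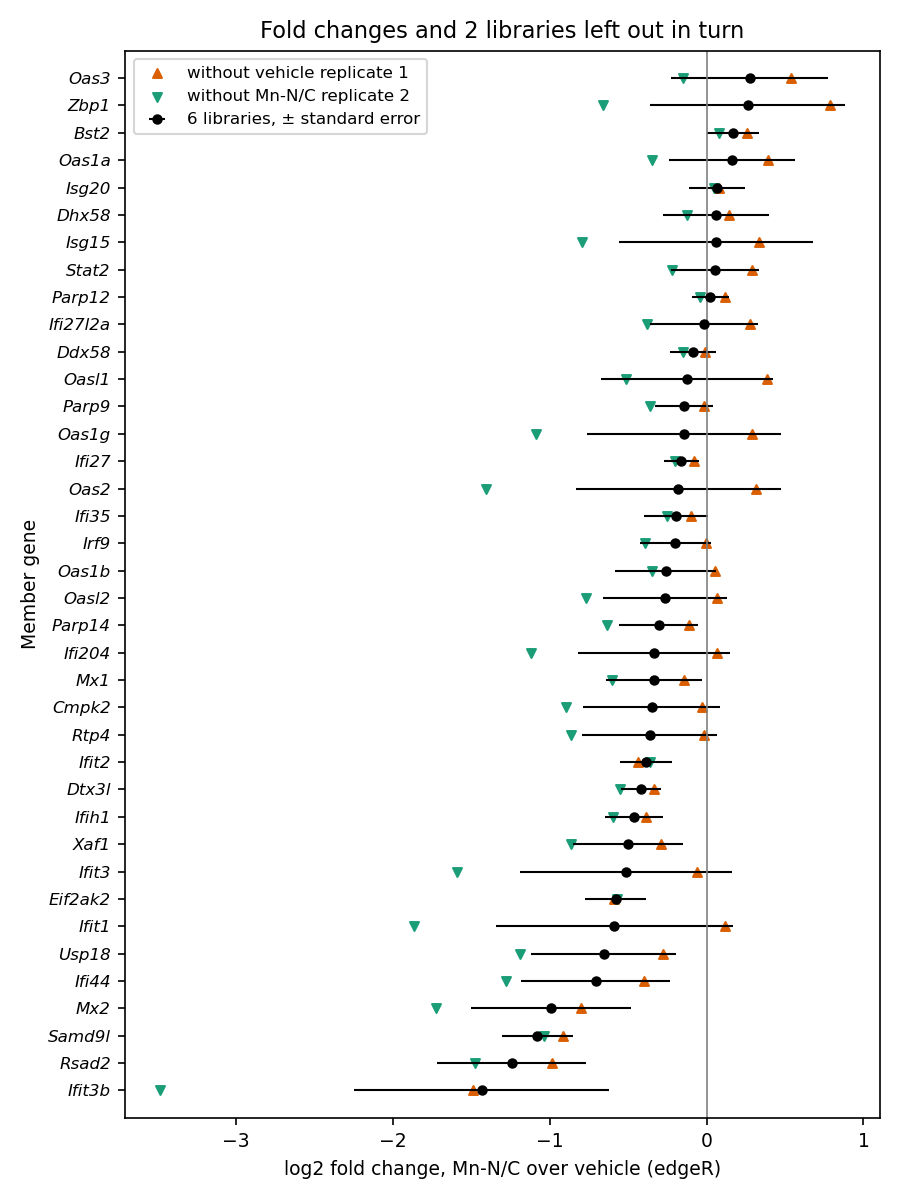
Log2 fold change of Mn-N/C over vehicle for the 38 tested members (black points, ± SE from edgeR), with the value without vehicle replicate 1 (orange) and without Mn-N/C replicate 2 (green). With 6 libraries 29 members lie below 0; without vehicle replicate 1 there are 21, and without Mn-N/C replicate 2 there are 36.

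With gene length corrected and the replicate number as a block, edgeR also called Samd9l lower, where it called 0.477% of all genes lower. The median over the members stayed below 0 when any 1 library was left out, and its size depended on single libraries. Without vehicle replicate 1 the median log2 fold change was -0.01, with 17 members higher and 21 lower, and 2 members were lower at an unadjusted p under 0.05 (8.06% of all genes). Without Mn-N/C replicate 2 it was -0.60, with 2 higher and 36 lower, and 18 members were lower at that level (8.38% of all genes). Without vehicle replicate 3 all 38 tested members had a lower mean, the median was -0.41 and 5 were lower at that level (5.63%). Without Mn-N/C replicate 1 the median was -0.12 with 3 members at that level (5.77%), and without Mn-N/C replicate 3 it was -0.12 with 4 (9.79%). Without vehicle replicate 2 the median was -0.29 with 5 at that level (14.3%), and edgeR called Eif2ak2 and Samd9l lower, where 1.97% of all genes were called lower. With 5 libraries, 3 members lay wholly lower in Mn-N/C without vehicle replicate 1 (15.9% of all genes), 5 without vehicle replicate 2 (23.6%) and 10 without vehicle replicate 3 (14.1%). Without Mn-N/C replicates 1, 2 and 3 in turn there were 3 (16.1%), 15 (17.6%) and 5 (20%).

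The fold changes also moved with base composition. Over the genes tested, the log2 fold change rose with GC content (Spearman's rho 0.49 across genes, which are not independent replicates). With the GC trend removed, Samd9l, Dtx3l, Eif2ak2 and Rsad2 were lower at an unadjusted p under 0.05 (5.87% of all genes), and Ifih1 and Ifit2 were not. The log2 fold changes of Samd9l, Ifih1 and Ifit2 were then -0.68, -0.24 and -0.12, against -1.08, -0.46 and -0.39 without the correction. With the GC correction and the replicate block together, 0 members were called.

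The members varied together over the 6 libraries in an order that crossed the groups. Vehicle replicate 1 and Mn-N/C replicate 2 were the 2 highest libraries for 22 of the 38 members (57.9%), against 8.92% of all genes. In 27 members (71.1%, all genes 7.75%) vehicle replicate 1 was above replicate 2, replicate 2 above replicate 3, and Mn-N/C replicate 2 highest of its group. The pair and the order were picked after the members' values were seen. The shares of all genes beside them therefore describe the members and are no test of the pattern. All 7 OAS genes, all 4 PARP and DTX genes, both ISGF3 subunits and both genes of the ISG15 group had this order, and 0 of the 3 RNA sensors had it. The lowest library was Mn-N/C replicate 3 for 15 members, vehicle replicate 3 for 13 and Mn-N/C replicate 1 for 9. The 1 member lowest elsewhere was Samd9l, in Mn-N/C replicate 2. Vehicle replicate 3 was the highest vehicle library only for Ifit2 and Eif2ak2, against 39.2% of all genes. The spread over libraries was wide, with a median range of 1.36 on the log2 CPM scale against 0.49 for all genes, and a range above 1 in 26 members (all genes 20.8%). The range within a group was larger than the difference of the group means for 36 of the 38 members, and for 87.1% of all genes.

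**Figure D2:**
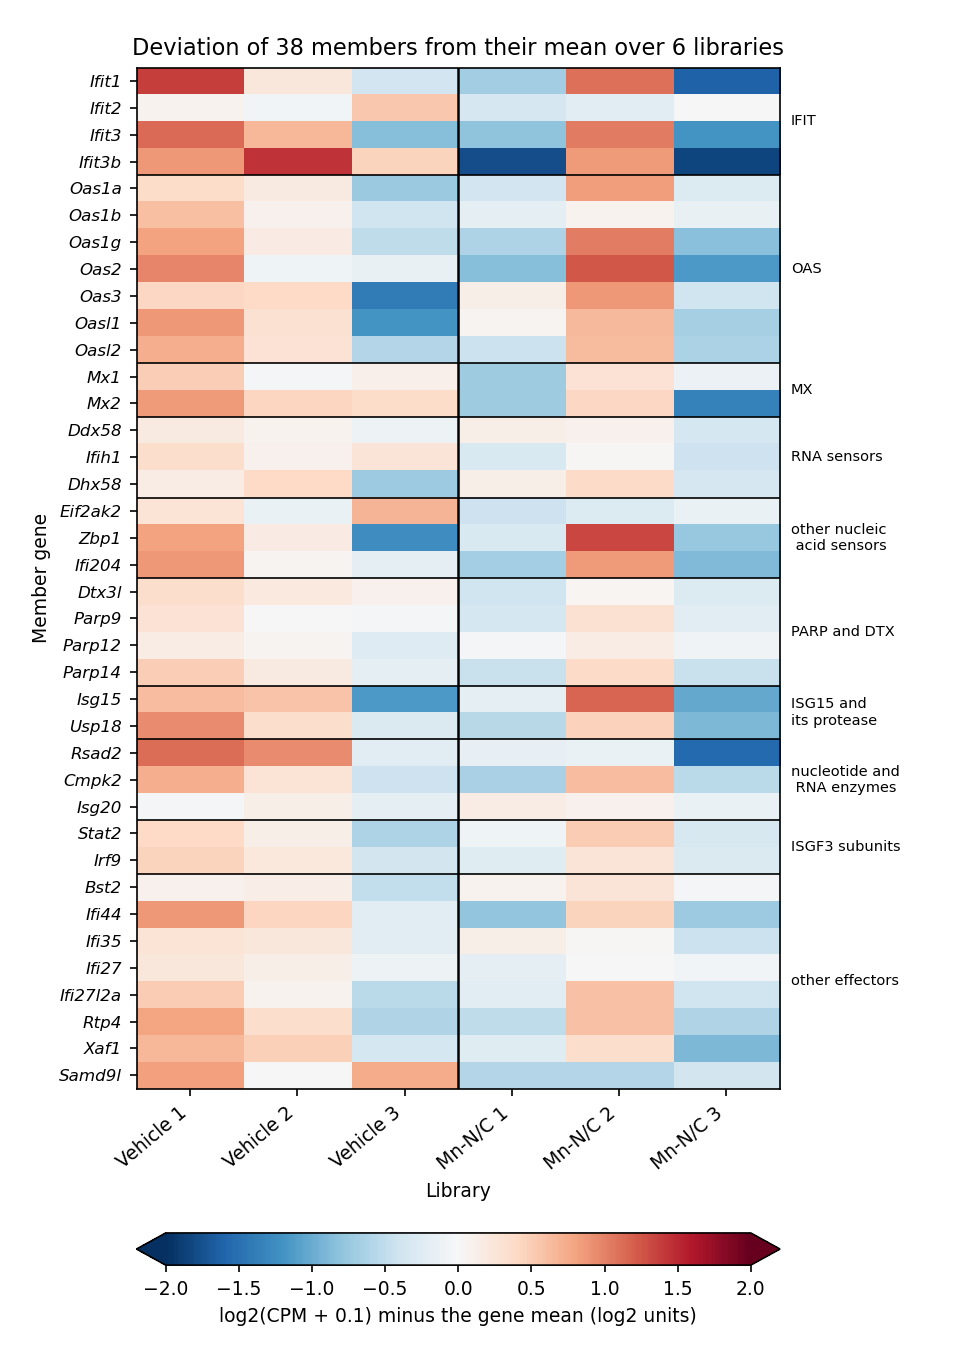
Each row is 1 of the 38 tested members and each column 1 library; color is log2(CPM + 0.1) minus the average of that gene, in log2 units, with red above and blue below it. Vehicle 1 and Mn-N/C 2 are red for most rows, and they are the 2 highest libraries for 22 of the 38 members.

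Summed markers of several cell types were also highest in the 2 libraries that headed most members. The summed level of 9 listed T cell markers was 18.9, 12.2 and 6.13 CPM in vehicle and 9.07, 20.3 and 8.94 CPM in Mn-N/C libraries, with ranges of 6.13 to 18.9 and 8.94 to 20.3 CPM, and 6 of its 7 tested genes had those 2 libraries highest. Cd3d was at 0 in vehicle replicate 3 and Cd8b1 at 0 in Mn-N/C replicate 3. The same pair was highest for the sum of 6 NK cell markers (9.92 to 14.8 CPM in vehicle and 9.07 to 14.2 CPM in Mn-N/C libraries) and for 3 of its 5 tested genes. It was also highest for the sums of 7 fibroblast markers (5973, 3788 and 4256 CPM in vehicle and 3721, 8230.4 and 3472 CPM in Mn-N/C libraries), 7 endothelial markers (186, 125 and 158 CPM in vehicle and 112, 197 and 138 CPM in Mn-N/C libraries) and 8 dendritic cell markers (59.3, 35.8 and 34.2 CPM in vehicle and 29.2, 50.4 and 27.9 CPM in Mn-N/C libraries). Gene by gene, the pair was highest for 5 of 7 tested fibroblast markers, 4 of 7 endothelial and 2 of 4 dendritic cell markers. The fibroblast marker Dcn was lowest in Mn-N/C replicate 2, at 243 CPM, and the endothelial markers Emcn, Cldn5 and Tek were highest in vehicle replicate 3. The sum of 11 macrophage and monocyte markers spread less, at 1299.6, 1229.7 and 1010.0 CPM in vehicle and 1154, 1396 and 1385 CPM in Mn-N/C libraries. Vehicle replicate 1 and Mn-N/C replicate 2 were still the 2 highest libraries for 6 of its 11 tested genes. Lyz2, a large part of that sum at 580 to 766 CPM, was highest in Mn-N/C replicate 3. Skeletal muscle markers were high in Mn-N/C replicate 2, at 627 CPM, against 9.33 to 188 CPM in the others. The sum of 8 colon epithelium or carcinoma markers was also highest in Mn-N/C replicate 2 (42.9 CPM) and vehicle replicate 1 (38.1 CPM). That pair was highest for 1 of its 2 tested genes. The sums of neutrophil, B cell, skin keratinocyte and adipocyte markers had other pairs of libraries highest. Mmp9, at 156 to 237 CPM, made up most of the neutrophil sum of 162 to 241 CPM. The neutrophil markers S100a8, S100a9, Cxcr2 and Retnlg were highest in Mn-N/C replicate 2 and Csf3r in vehicle replicate 1. That pair was highest for 2 of the 6 tested neutrophil genes. Krt14, at 133 to 204 CPM, made up most of the keratinocyte sum. The part of these cell types in the members' levels was not tested.

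Per length, the highest member was Bst2, with a mean of 49.2 FPKM (reads scaled by gene length and library size) over the 6 libraries, followed by Ifi27 at 21.8, Parp12 at 15.6 and Ifi27l2a at 13.5 FPKM. The lowest tested members were Ifi44 at 0.281, Mx2 at 0.368 and Ifit3b at 0.474 FPKM. The members also differed in how far they spread over libraries. Ranges of at most 0.53 on the log2 CPM scale were found for Isg20, Ifi27, Parp12 and Ddx58, and ranges above 2.5 for Ifit3b, Ifit1, Rsad2 and Zbp1. Members with few reads carry more counting error, and Ifit3b had 98 reads over all libraries against 6469 for Parp12.

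The 4 tested IFIT genes, which lie on chromosome 19, all had lower means in Mn-N/C tumors, and their median was -0.55 on the log2 scale. That median was -0.25 without vehicle replicate 1 and -1.73 without Mn-N/C replicate 2. Ifit1, which binds viral RNA that lacks the host's cap methylation, was at 3.40, 1.47 and 0.933 CPM in vehicle replicates 1, 2 and 3 and 0.736, 2.78 and 0.337 CPM in Mn-N/C replicates 1, 2 and 3. The highest library of each group was thus 3.64-fold and 8.25-fold above its lowest, and the groups overlapped. Its log2 fold change was -0.59 (SE 0.76, edgeR adjusted p = 0.695), 0.12 without vehicle replicate 1 and -1.86 without Mn-N/C replicate 2. Ifit3, a partner of IFIT1 in human cells, was at 6.90, 4.96 and 1.67 CPM in vehicle and 1.72, 6.46 and 1.29 CPM in Mn-N/C libraries, a log2 fold change of -0.51 (SE 0.67, edgeR adjusted p = 0.700). Its copy Ifit3b was at 1.27, 1.96 and 0.933 CPM in vehicle and 0.123, 1.26 and 0.112 CPM in Mn-N/C libraries, high in all vehicle libraries and Mn-N/C replicate 2. In Mn-N/C replicates 1 and 3 Ifit3b rested on 2 and 2 reads, so its log2 fold change of -1.43 (SE 0.81, edgeR adjusted p = 0.340) depends on few counts. Neither Ifit3b, highest in vehicle replicate 2, nor Ifit2, which binds RNA and has been tied to cell death, had the order of most members. Ifit2 was at 30.9, 28.2 and 42.6 CPM in vehicle and 23.2, 25.3 and 29.2 CPM in Mn-N/C libraries, highest in vehicle replicate 3. Only Mn-N/C replicate 3 reached above the lowest vehicle value, and the log2 fold change was -0.39 (SE 0.17, edgeR adjusted p = 0.238), with an unadjusted p of 0.0496. It was -0.12 (edgeR adjusted p = 0.636) with the GC trend removed and -0.19 without vehicle replicate 3. Its unadjusted p was also above 0.05 with the length correction, with upper-quartile scaling and without vehicle replicate 1 or 3 or Mn-N/C replicate 1 or 2.

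The 7 OAS genes on chromosome 5 moved as a block across libraries and little between groups. Their median log2 fold change, -0.14, was 0.31 without vehicle replicate 1 and -0.52 without Mn-N/C replicate 2. Their mean deviation from the average library was 0.67, 0.19 and -0.71 in vehicle and -0.33, 0.76 and -0.58 in Mn-N/C libraries, in log2 units. Oas1a, an oligoadenylate synthetase and the member of the family with the highest FPKM, was at 7.60, 6.67 and 3.46 CPM in vehicle and 4.48, 10.6 and 4.84 CPM in Mn-N/C libraries. Its group means were 5.91 ± 2.17 CPM in vehicle and 6.62 ± 3.41 CPM in Mn-N/C libraries (SD, n = 3), a log2 fold change of 0.16 (SE 0.40, edgeR adjusted p = 0.853). Oas2, another synthetase, was at 5.47, 2.57 and 2.46 CPM in vehicle and 1.47, 6.62 and 1.18 CPM in Mn-N/C libraries. Mn-N/C replicate 2 was 5.60-fold above replicate 3 of the same group, against a log2 fold change of -0.18 (SE 0.65, edgeR adjusted p = 0.903). Oas1b, which carries a premature stop in C57BL/6 mice, was at 4.25, 2.94 and 2.07 CPM in vehicle and 2.39, 2.89 and 2.47 CPM in Mn-N/C libraries. It spread less within Mn-N/C, 1.21-fold, than within vehicle, 2.06-fold, and its log2 fold change was -0.26 (SE 0.32, edgeR adjusted p = 0.683). Oas3, which binds long double-stranded RNA, had the highest log2 fold change of all members, at 0.27 (SE 0.50, edgeR adjusted p = 0.792), and it was -0.15 without Mn-N/C replicate 2. Oas1g, Oasl1 and Oasl2 had log2 fold changes of -0.14, -0.12 and -0.26, which were 0.29, 0.39 and 0.067 without vehicle replicate 1. Oasl1 and Oasl2 encode OAS-like proteins.

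Mx1 and Mx2, neighbors on chromosome 16, belong to a family of antiviral GTPases, and the Mx1 gene of C57BL/6 mice carries a deletion that leaves it without function. Whether Mx2 makes a working protein in these mice was not examined. Mx1 was at 6.11, 4.16 and 4.60 CPM in vehicle and 2.57, 5.25 and 3.94 CPM in Mn-N/C libraries, a log2 fold change of -0.34 (SE 0.30, edgeR adjusted p = 0.556). Mx2 was at 2.18, 1.59 and 1.53 CPM in vehicle and 0.674, 1.58 and 0.394 CPM in Mn-N/C libraries, with the low values in Mn-N/C replicates 1 and 3. Its log2 fold change was -0.99 (SE 0.51, edgeR adjusted p = 0.298). The groups overlapped for both genes, and the median of the pair was -0.66, or -0.47 without vehicle replicate 1 and -1.16 without Mn-N/C replicate 2.

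The mean level of the RNA sensors spread least over the libraries among the 10 families. Ddx58 (RIG-I), which recognizes short RNA with a triphosphate end, was at 28.1, 26.1 and 23.3 CPM in vehicle and 27.2, 26.5 and 19.5 CPM in Mn-N/C libraries. Its groups overlapped, with a log2 fold change of -0.086 (SE 0.15, edgeR adjusted p = 0.781). Ifih1 (MDA5), the sensor of long double-stranded RNA, was at 9.88, 8.14 and 9.26 CPM in vehicle and 6.25, 7.82 and 5.74 CPM in Mn-N/C libraries. Every Mn-N/C value lay below every vehicle value, with group means of 9.09 ± 0.879 CPM in vehicle and 6.60 ± 1.09 CPM in Mn-N/C libraries (SD, n = 3). Its log2 fold change was -0.46 (SE 0.18, edgeR adjusted p = 0.215) with an unadjusted p of 0.0362, and it stayed between -0.60 and -0.37 when any 1 library was left out. With the GC trend removed it was -0.24 (edgeR adjusted p = 0.556). Its unadjusted p was above 0.05 with the GC or length correction, with the replicate block and without vehicle replicate 1 or 3 or Mn-N/C replicate 1 or 3. Dhx58 (LGP2), which modulates the other two, had a log2 fold change of 0.062 (SE 0.34, edgeR adjusted p = 0.935), -0.12 without Mn-N/C replicate 2. The median of the 3 sensors was -0.086, and it was 0.052 without Mn-N/C replicate 3.

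Among other sensors of nucleic acid, vehicle replicate 3 was the highest library for Eif2ak2 and the lowest for Zbp1. Eif2ak2 (PKR), the kinase that stops translation on double-stranded RNA, was at 37.0, 28.1 and 49.3 CPM in vehicle and 22.9, 25.4 and 28.2 CPM in Mn-N/C libraries. Vehicle replicate 3 was highest, and Mn-N/C replicate 3 exceeded vehicle replicate 2 by a small margin, so the groups overlapped. The group means were 38.1 ± 10.6 CPM in vehicle and 25.5 ± 2.62 CPM in Mn-N/C libraries (SD, n = 3), a log2 fold change of -0.58 (SE 0.19, edgeR adjusted p = 0.184) with an unadjusted p of 0.0164. Without vehicle replicate 2 it was -0.74 with an adjusted p of 0.0495 in edgeR, and without vehicle replicate 3 it was -0.35. The unadjusted p of Eif2ak2 was above 0.05 without Mn-N/C replicate 1. Zbp1, the sensor of Z-form nucleic acid that starts necroptosis, was at 11.6, 7.41 and 2.73 CPM in vehicle and 5.33, 16.9 and 3.88 CPM in Mn-N/C libraries. Its vehicle libraries spread 4.24-fold and its Mn-N/C libraries 4.36-fold, and vehicle replicate 3 was the lowest of all. The log2 fold change of 0.26 (SE 0.62, edgeR adjusted p = 0.845) turned to -0.66 without Mn-N/C replicate 2. Ifi204, a p200 protein that binds DNA, had a log2 fold change of -0.33 (SE 0.49, edgeR adjusted p = 0.733), 0.065 without vehicle replicate 1. The median of the 3 genes was -0.33, or 0.065 without vehicle replicate 1 and -0.66 without Mn-N/C replicate 2.

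**Figure D3:**
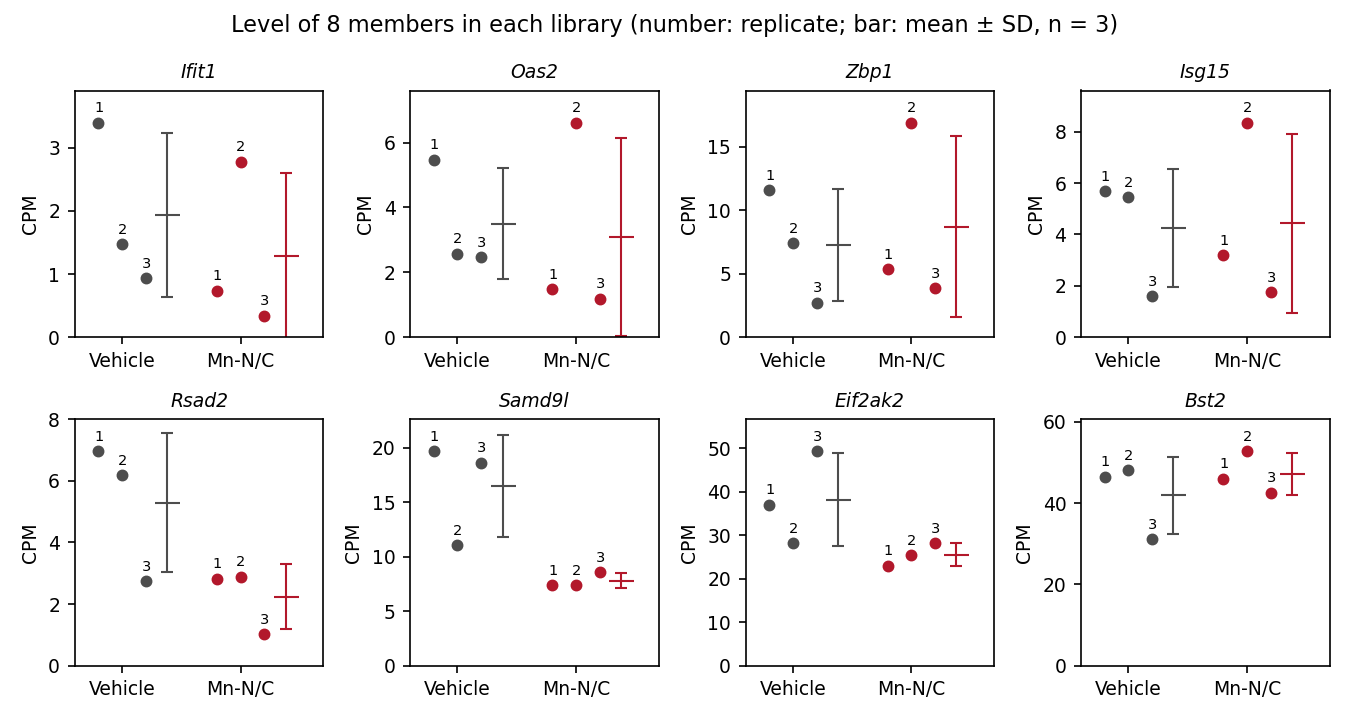
CPM of 8 members in every library (points, numbered by replicate; vehicle grey, Mn-N/C red; horizontal mark and bar, mean ± SD, n = 3; each panel has its own axis from 0, where the lower bar of Ifit1 is clipped). Samd9l is lower in all Mn-N/C libraries, with means of 16.5 and 7.81 CPM. For Ifit1, Oas2, Zbp1 and Isg15 the 2 highest libraries are vehicle replicate 1 and Mn-N/C replicate 2.

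The PARP and DTX genes kept the shared order with small amplitude. Dtx3l, a ubiquitin ligase that works in a complex with PARP9, was at 58.1, 52.1 and 48.1 CPM in vehicle and 34.3, 46.8 and 37.4 CPM in Mn-N/C libraries. All 3 Mn-N/C values lay below the vehicle values. The group means were 52.8 ± 5.04 CPM in vehicle and 39.5 ± 6.49 CPM in Mn-N/C libraries (SD, n = 3), a log2 fold change of -0.42 (SE 0.13, edgeR adjusted p = 0.182) with an unadjusted p of 0.0117. Without vehicle replicate 1 the unadjusted p of Dtx3l was above 0.05. Its partner Parp9, which binds ADP-ribose, was at 32.0, 25.9 and 25.2 CPM in vehicle and 20.5, 32.3 and 22.6 CPM in Mn-N/C libraries, with overlapping groups. Its log2 fold change of -0.14 (SE 0.18, edgeR adjusted p = 0.696) was smaller than that of Dtx3l, and the difference between them was not tested. Parp12, a mono-ADP-ribosyltransferase, was at 68.7, 64.5 and 51.8 CPM in vehicle and 60.4, 68.9 and 58.9 CPM in Mn-N/C libraries, with a log2 fold change of 0.025 (SE 0.12, edgeR adjusted p = 0.926). Parp14, another ADP-ribosyltransferase, had a log2 fold change of -0.30 (SE 0.25). Dtx3l, Parp9 and Parp14 lie on chromosome 16 and Parp12 on chromosome 6. The median of the 4 genes was -0.22, or -0.064 without vehicle replicate 1 and -0.46 without Mn-N/C replicate 2.

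Isg15, a ubiquitin-like protein modifier, was at 5.68, 5.45 and 1.60 CPM in vehicle and 3.19, 8.35 and 1.74 CPM in Mn-N/C libraries. It was 3.55-fold higher in the highest than the lowest vehicle library and 4.79-fold within Mn-N/C. Its log2 fold change was 0.059 (SE 0.62, edgeR adjusted p = 0.968). It was -0.79 without Mn-N/C replicate 2, and below 0 in the fits that used FPKM, a replicate block, or a length or GC correction. Usp18, which removes ISG15 from proteins and dampens the interferon receptor, was at 4.67, 3.06 and 1.93 CPM in vehicle and 1.59, 3.31 and 1.24 CPM in Mn-N/C libraries. The lowest Usp18 values were in Mn-N/C replicates 1 and 3, and the log2 fold change was -0.65 (SE 0.46, edgeR adjusted p = 0.444).

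Rsad2 (viperin), which makes a chain-terminating nucleotide, was at 6.96, 6.18 and 2.73 CPM in vehicle and 2.82, 2.89 and 1.01 CPM in Mn-N/C libraries. Vehicle replicates 1 and 2 stood above all other libraries and Mn-N/C replicate 3 below them. The group means were 5.29 ± 2.25 CPM in vehicle and 2.24 ± 1.06 CPM in Mn-N/C libraries (SD, n = 3), with a log2 fold change of -1.24 (SE 0.47, edgeR adjusted p = 0.204) and an unadjusted p of 0.0294. Leaving out any 1 library gave -1.55 to -0.89, and the unadjusted p was above 0.05 without vehicle replicate 1 or 2 or Mn-N/C replicate 3. Cmpk2, a mitochondrial nucleotide kinase beside Rsad2 on chromosome 12, had a log2 fold change of -0.35 (SE 0.44, edgeR adjusted p = 0.683). Unlike Rsad2, Cmpk2 had Mn-N/C replicate 2 among its 2 highest libraries. Isg20, an exonuclease, was nearly level at 7.06, 7.78 and 6.26 CPM in vehicle and 7.97, 7.61 and 6.52 CPM in Mn-N/C libraries. Its range of 0.342 on the log2 scale was the smallest of the 38 members, and its log2 fold change was 0.066 (SE 0.18, edgeR adjusted p = 0.866).

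The 2 ISGF3 subunits among the members had a median log2 fold change of -0.072, or 0.14 without vehicle replicate 1 and -0.31 without Mn-N/C replicate 2. Irf9, the subunit that reads the DNA motif, was at 36.8, 31.2 and 20.9 CPM in vehicle and 22.9, 32.4 and 22.2 CPM in Mn-N/C libraries, with a log2 fold change of -0.20 (SE 0.22, edgeR adjusted p = 0.646). Stat2, which contributes the activating domain, had 0.054 (SE 0.28, edgeR adjusted p = 0.933) and was -0.22 without Mn-N/C replicate 2. The same 2 libraries headed both genes, and vehicle replicate 3 was the lowest.

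Samd9l, an antiviral and growth-restraining protein, was the member with the smallest p. It was at 19.7, 11.1 and 18.7 CPM in vehicle replicates 1, 2 and 3 and 7.42, 7.40 and 8.60 CPM in Mn-N/C replicates 1, 2 and 3. The lowest vehicle library lay above the highest Mn-N/C library, and the Mn-N/C libraries differed from each other by 1.16-fold. The group means were 16.5 ± 4.70 CPM in vehicle and 7.81 ± 0.688 CPM in Mn-N/C libraries (SD, n = 3), a log2 fold change of -1.08 (SE 0.22, edgeR adjusted p = 0.182) with an unadjusted p of 0.00123. DESeq2 gave -1.08 with an adjusted p of 0.00558. Leaving out any 1 library kept the log2 fold change between -1.28 and -0.92, and without vehicle replicate 2 the adjusted p was 0.0495 in edgeR. With the GC trend removed it was -0.68 (edgeR adjusted p = 0.200), and -0.66 (adjusted p = 0.134) with the replicate block as well. Samd9l did not share the order of most members, since Mn-N/C replicate 2 was its lowest library.

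Bst2 (tetherin), which holds budding virions at the cell surface, was at 46.5, 48.1 and 31.0 CPM in vehicle and 46.0, 52.8 and 42.6 CPM in Mn-N/C libraries. Vehicle replicate 3 was low and the other 5 libraries lay within 42.6 to 52.8 CPM, and the log2 fold change was 0.17 (SE 0.17, edgeR adjusted p = 0.596). Ifi27, a small interferon-induced protein, was at 37.2, 34.4 and 29.7 CPM in vehicle and 28.0, 31.9 and 30.8 CPM in Mn-N/C libraries, a log2 fold change of -0.16 (SE 0.11, edgeR adjusted p = 0.436). Ifi35, a partner of NMI, was at 11.7, 11.4 and 8.39 CPM in vehicle and 10.5, 9.87 and 7.20 CPM in Mn-N/C libraries, a log2 fold change of -0.20 (SE 0.20, edgeR adjusted p = 0.616). For all 3 the groups overlapped. Rtp4, a chaperone of surface receptors, Xaf1, an antagonist of XIAP, and Ifi44 had log2 fold changes of -0.36, -0.50 and -0.71, and were highest in vehicle replicate 1. Ifi27l2a was at -0.016, or 0.28 without vehicle replicate 1. The 8 tested effectors had a median of -0.28, or -0.089 without vehicle replicate 1 and -0.62 without Mn-N/C replicate 2.

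**Figure D4:**
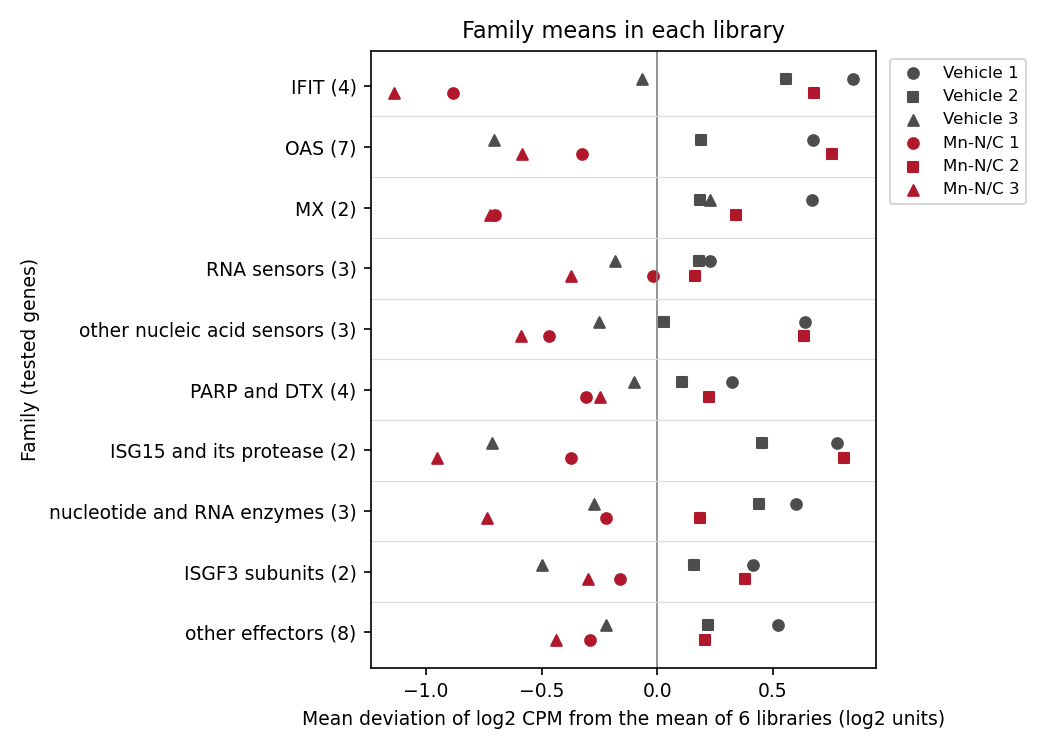
Mean deviation of log2 CPM from the mean of 6 libraries for the tested genes of each family (number in brackets), with 1 point per library; vehicle is grey, Mn-N/C red and the shape marks the replicate. In all 10 families vehicle 1, vehicle 2 and Mn-N/C 2 lie above 0 and Mn-N/C 1 and 3 below it, and IFIT spans the widest range, from -1.14 to 0.85.

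The families differed in amplitude, and their orders of libraries were not all the same. The IFIT mean deviation was 0.85, 0.56 and -0.067 in vehicle and -0.88, 0.68 and -1.14 in Mn-N/C libraries in log2 units, and that of the RNA sensors was 0.23, 0.18 and -0.18 in vehicle and -0.020, 0.16 and -0.37 in Mn-N/C libraries. The ISG15 group was at 0.78, 0.45 and -0.71 in vehicle and -0.37, 0.81 and -0.95 in Mn-N/C libraries. PARP and DTX genes were at 0.32, 0.11 and -0.10 in vehicle and -0.31, 0.22 and -0.25 in Mn-N/C libraries. In every family the mean deviation was above 0 in vehicle replicates 1 and 2 and Mn-N/C replicate 2 and below 0 in Mn-N/C replicates 1 and 3. Vehicle replicate 3 was below 0 in every family except MX, where it was 0.23, and it was the lowest library for OAS and the ISGF3 subunits. Within IFIT, Ifit1, Ifit3 and Ifit3b had 173, 410 and 98 reads in all, and Ifit2, with 3059 reads, had a range of only 0.87. The part of read depth in these amplitudes was not tested.

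The pathway around the members was followed in 8 lists. Of 17 type I interferon ligand genes, 13 had no read and none was tested. Ifnb1 had 1, 2 and 1 reads in vehicle and 0 in each Mn-N/C library, and Ifng, the type II interferon, had 4, 2 and 0 reads in vehicle and 0 in each Mn-N/C library, all too few to compare. Of 8 tested receptor and kinase genes, 2 were lower at an unadjusted p under 0.05 in edgeR, against 11.1% of all genes. Jak1 had -0.20 (SE 0.08, edgeR adjusted p = 0.229) on the log2 scale and Jak2 -0.56 (SE 0.19, edgeR adjusted p = 0.187), while the receptor chain Ifnar1 had -0.016 (SE 0.08, edgeR adjusted p = 0.929). With the GC trend removed Jak1 was at -0.15 and Jak2 at -0.40. None of 7 transcription factors reached that level. Irf7, which amplifies interferon genes, was at 13.6, 10.5 and 4.33 CPM in vehicle and 4.41, 15.5 and 5.00 CPM in Mn-N/C libraries, with the same 2 libraries highest as in most members. Its log2 fold change was -0.19 (SE 0.54, edgeR adjusted p = 0.877).

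Among 9 tested feedback inhibitors, the phosphatase gene Ptpn2 was lower at an unadjusted p under 0.05 (11.1% of all genes), at -0.30 (SE 0.12, edgeR adjusted p = 0.224) on the log2 scale, and the median was 0.13. None of 13 upstream adaptors and kinases (median -0.090) or 7 partners of ISG15 and ubiquitin conjugation (median 0.025) reached that level. The 14 interferon-inducible GTPases, which attack the vacuoles of intracellular pathogens and respond strongly to type II interferon, had a mean deviation of 1.05, 0.24 and -0.66 in vehicle and -0.57, 0.76 and -0.82 in Mn-N/C libraries, in log2 units, the same order as most members. All 14 had lower means in Mn-N/C (median -0.35), against 49.8% of all genes. Only Gbp7 was lower at an unadjusted p under 0.05 (11.1% of all genes), at -0.93 (SE 0.33, edgeR adjusted p = 0.196). The 3 tested Ifitm genes, whose products block viral fusion, had higher means in Mn-N/C with a median of 0.25, and none passed an unadjusted p under 0.05. Over all 8 lists, 0 genes passed an adjusted p of 0.05 in edgeR.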

How the data were processed

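RNA of 3 vehicle and 3 Mn-N/C MC38 tumor libraries was used. Per the labels, reads were processed with HISAT2 2.0 and the mm10 genome; for the counting program, annotation and strand setting, none is given in the sources used here. The authors deposited whole-number counts per gene, not normalized, and FPKM values, which are counts divided by gene length and library total. Only 514 of 21850 genes of the table have the start and end of GENCODE M21 (GRCm38), so its coordinates are not printed, and sequences come from RefSeq on GRCm38.p6.

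The test across genes was that of edgeR 4.0.16, run in R 4.3.3 (TMM, filterByExpr, quasi-likelihood, group as the only term), with Benjamini-Hochberg adjustment over 12800 genes and a threshold of 0.05. CPM are TMM-scaled counts relative to library size, and log2 CPM used a prior count of 2. Deviations are from the gene's mean over 6 libraries. A single limit of 3 reads per library total was used for a count of 0. Total counts of 14988588 to 18961134 per library set the precision. The test was run on simulated data first.

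Alternatives were DESeq2 1.42.0, RLE and upper-quartile scaling, no filter, a filter of 1 CPM in 3 libraries, limma 3.58.1 on log2(FPKM + 1) and log2(FPKM + 0.1) for genes with FPKM of at least 1 in 3 libraries, a replicate block, loess correction (span 0.5) for gene length or GC content with and without the block, and leaving out each library. The chi-square of replicate pairs, divided by its degrees of freedom, was 6.49 to 26.7, so none was a copy. Members, families, marker and pathway lists were chosen with earlier results of these data known, and the pair and order of libraries after the members' values were seen. Members printed with all 6 values are, per family, the highest by FPKM and the smallest by p, and the 6 with the widest and the 6 with the narrowest range; outside the members, pathway genes with an unadjusted p under 0.05, the ligands, Irf7, Ifnar1 and Ifng were named. A further gene of this rule is not reported here.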

Additional observations from a re-analysis of the deposited data

How the results depend on the processing

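DESeq2 called 1 member (Samd9l, lower), as did the gene length correction with the replicate block (Samd9l, adjusted p = 0.0405 in edgeR, 0.477% of all genes lower). With edgeR, 0 were called with RLE or upper-quartile scaling, without the filter, with the stricter filter and with the block or either correction alone. Leaving out 1 library at a time, the count of members called ran over 0 to 2 (0% to 1.97% of all genes called lower). The count lower at an unadjusted p under 0.05 ran over 2 to 18 (5.63% to 14.3% of all genes). The count wholly lower in Mn-N/C ran over 3 to 15 (14.1% to 23.6% of all genes). Family medians ran over these log2 fold changes: IFIT -1.73 to -0.25, OAS -0.52 to 0.31, MX -1.16 to -0.47, RNA sensors -0.20 to 0.052, other nucleic acid sensors -0.66 to 0.065, PARP and DTX -0.46 to -0.064, ISG15 and its protease -0.99 to 0.030, nucleotide and RNA enzymes -0.89 to -0.031, ISGF3 subunits -0.31 to 0.14, other effectors -0.62 to -0.089. Of the 38 members, 18 changed sign when 1 library was left out and 20 did not. The ranges of the 18 were Bst2 -0.0044 to 0.29, Ddx58 -0.17 to 0.052, Dhx58 -0.20 to 0.32, Ifi204 -1.12 to 0.065, Ifi27l2a -0.38 to 0.28, Ifit1 -1.86 to 0.12, Isg15 -0.79 to 0.44, Isg20 -0.0097 to 0.16, Oas1a -0.35 to 0.39, Oas1b -0.48 to 0.053, Oas1g -1.09 to 0.29, Oas2 -1.40 to 0.31, Oas3 -0.15 to 0.54, Oasl1 -0.52 to 0.39, Oasl2 -0.77 to 0.067, Parp12 -0.085 to 0.12, Stat2 -0.22 to 0.29, Zbp1 -0.66 to 0.79. Outside these fits 14 of 436 values turned sign. Isg15 was at -0.040 with limma on log2(FPKM + 1), -0.050 with limma on log2(FPKM + 0.1), -0.027 with replicate block, -0.049 with gene length trend removed, -0.13 with gene length trend removed with replicate block, -0.026 with GC content trend removed, -0.099 with GC content trend removed with replicate block. The others were Ddx58 0.0032 with gene length trend removed, Dhx58 -0.014 with GC content trend removed, Parp12 -0.0050 with GC content trend removed, Isg20 -0.034 with GC content trend removed, Isg20 -0.034 with GC content trend removed with replicate block, Stat2 -0.0079 with GC content trend removed, Ifi27l2a 0.00074 with upper-quartile scaling. The cause was not tested.

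The replicate numbers are not stated to mark pairs. Deviations of same-numbered libraries from their group means correlated at -0.15, -0.01 and 0.12 over genes. Differently numbered libraries gave values from -0.11 to 0.13, so this check cannot tell whether the numbers mark pairs. With the replicate block, 8 members were higher and 30 lower, and the median log2 fold change was -0.31. In that fit 7 members were lower at an unadjusted p under 0.05 and 0 were called. With GC content corrected, 4 were higher and 34 lower, and those lower at an unadjusted p under 0.05 fell from 6 to 4. With the block added to the GC correction, 7 were lower at that level and 0 were called (Samd9l, adjusted p = 0.134 in edgeR). The share of all genes at that level is not given for these fits with the block. With limma, 28 members passed the FPKM filter, of which 21 were lower and 0 called. Ifit1, Ifit3b, Oas1g, Mx2 and Ifi44 had under 200 reads in all, which limits their precision.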
